A study of Homo sapiens with 4 samples.

Results

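The genes described are 9 that are commonly read as evidence of definitive endoderm or of its liver-directed derivatives: the transcription factors SOX17, FOXA2, HHEX and PRDM1, the chemokine receptor CXCR4, and the secreted proteins APOA1, APOA2, AFP and TTR. They were taken by symbol from a table of 17894 genes, and each matched 1 row. Of the 9, 7 had a mean of at least 1 FPKM over the libraries, as did 12697 of all genes, and AFP and TTR did not. FPKM are fragments mapped to a gene, scaled for transcript length and for the number of mapped fragments.

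The values come from RNA-SEQ of 4 libraries of H1 cells, a human embryonic stem cell line, collected at day 2 of hematopoietic differentiation on mAGM-S3, a mouse stromal line. All 4 cultures were switched to an IMDM medium for hematopoiesis that held 10% fetal bovine serum, and human cells were sorted as TRA-1-85+ before RNA was taken. The control library was of wild type cells with no added factor, the R-spondin2 library was of wild type cells with R-spondin2 in the medium (20 ng/mL) over 1 day, and 1 library came from each of 2 LGR4-/- lines, called clone 1 and clone 2 here, neither labelled as treated. LGR4 encodes a receptor for R-spondins, which strengthen WNT signaling. The control and the R-spondin2 libraries have no replicate, the labels do not say how the LGR4 gene was disrupted, and a difference of the clones from the control cannot be told apart from differences between lines. RNA was measured over whole sorted populations, so that fewer cells of a type and less RNA per cell cannot be told apart.

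LGR4 itself was at 21.77 FPKM in the control library, 24.26 with R-spondin2, 7.40 in clone 1 and 13.95 in clone 2, or 34% and 64.1% of the control level in the clones. The transcript was lower but present in both clones, and its log2 ratio of clone 2 to clone 1 in implied reads was 0.92 (95% interval 0.72 to 1.11). Read counts were not used here, and the depth was estimated from the low FPKM at 8850000 to 9040000 fragments. At these depths 77.2% to 79.4% of the low values were whole reads to within 0.2, against 41.7% to 44.3% with transcript lengths shuffled. The reads implied for a gene rest on this estimate and on the length of its shortest transcript. That choice of length bears on APOA1, with 4 transcripts listed, and on FOXA2, CXCR4 and PRDM1, with 2 each. Intervals are 95% exact (Clopper-Pearson for ratios, Poisson for levels) and cover counting error only, not the spread between cultures.

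Definitive endoderm is the germ layer that forms gut, liver, pancreas and lung. It leaves the primitive streak together with nascent mesoderm, under high NODAL signaling, and SOX17 and FOXA2 are required for its formation. HHEX marks its anterior part and the liver bud, PRDM1 is a transcriptional repressor used in anterior endoderm and in primordial germ cells, and CXCR4 is the surface receptor by which such cells are often sorted. APOA1 and APOA2 are the main apolipoproteins of high-density lipoprotein, AFP is the fetal counterpart of albumin and TTR carries thyroid hormone and retinol-binding protein. These 4 are products of liver and visceral endoderm.

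The start-site regions of APOA2 and AFP are shown because these genes, products of the same tissues, had FPKM on opposite sides of the control in the LGR4-/- clones. For AFP, which was below the filter, the counting intervals of that difference included 0. Both are the 250 bases before a RefSeq start site in GRCh38.p14, 5′ to 3′ on the gene's own strand, that is chr1:161223629-161223878 on the minus strand for APOA2 and chr4:73435971-73436220 on the plus strand for AFP. Capitals mark a match to the forkhead motif TGTTTAC, here on the opposite strand of the printed run.
APOA2: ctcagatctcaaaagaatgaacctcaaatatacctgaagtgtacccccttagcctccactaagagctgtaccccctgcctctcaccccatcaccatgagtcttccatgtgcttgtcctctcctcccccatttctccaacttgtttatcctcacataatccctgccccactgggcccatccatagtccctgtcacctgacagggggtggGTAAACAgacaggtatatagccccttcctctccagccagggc
AFP: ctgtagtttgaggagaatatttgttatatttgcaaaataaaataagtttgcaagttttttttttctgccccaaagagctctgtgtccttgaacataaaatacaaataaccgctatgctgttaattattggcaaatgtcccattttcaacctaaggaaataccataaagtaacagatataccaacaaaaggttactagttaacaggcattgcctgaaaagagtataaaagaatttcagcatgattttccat
The APOA2 match lay 42 to 36 bases before the start site, and 2.98% of the 35116 promoters searched hold the motif in a window of this length. No match to the GATA motif AGATAA, the TCF/LEF motif CTTTGAT, the SOX motif CATTGT or the T-box motif GGTGTGA was found on either strand of the windows read for HHEX, CXCR4, PRDM1, APOA2 and AFP, nor a second match to the forkhead motif. The shares of all promoters that hold them were 9.17%, 2.26%, 9.29% and 2.76% in that order. A match is a description of these letters and not a site of binding.

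Transcripts of SOX17, FOXA2, HHEX, CXCR4, PRDM1, APOA1 and APOA2 were all present in the control library at day 2, and SOX17 stood well above the others. SOX17 was at 47.11 FPKM (interval 44.2 to 50.1), higher than 91% of all 17894 genes, those below the filter included. FOXA2 followed at 9.05 FPKM (7.83 to 10.4) and HHEX at 8.28 (6.91 to 9.84), then APOA1 at 6.21 (4.64 to 8.14), CXCR4 at 5.90 (4.74 to 7.25) and APOA2 at 5.53 (3.54 to 8.23). PRDM1 was at 3.19 FPKM (2.67 to 3.78), and AFP and TTR were both at 0.49. From FOXA2 down to PRDM1 the interval of each gene overlapped that of the next, so that the order of these neighbours was not resolved. FOXA2 was apart from CXCR4, and PRDM1 was below FOXA2, HHEX, APOA1 and CXCR4 without overlap and above AFP and TTR. In the clones SOX17, FOXA2 and HHEX again came first in this order, but SOX17 stood closer to FOXA2. The ratio of SOX17 to FOXA2 in FPKM was 5.21 in the control library, 5.91 with R-spondin2, 1.99 in clone 1 and 2.34 in clone 2.

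**Figure D1:**
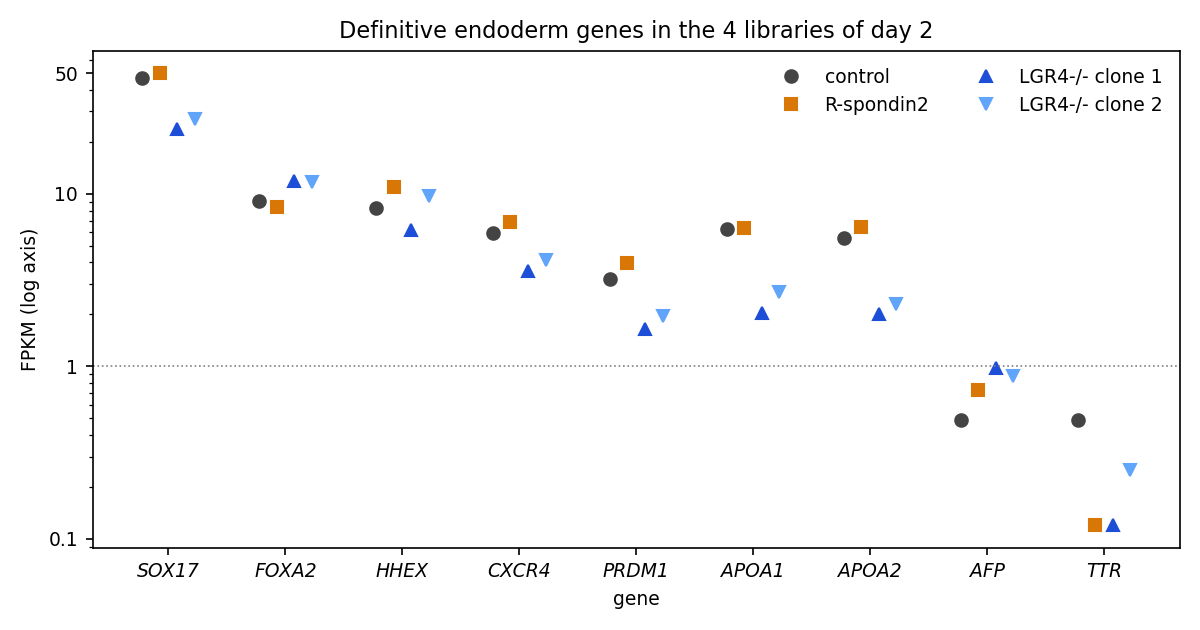
FPKM (log axis) of the 9 genes in each library, with 1 point per library and a dotted line at 1 FPKM. SOX17, CXCR4, PRDM1, APOA1 and APOA2 lie lower in both LGR4-/- clones than in the control and R-spondin2 libraries, FOXA2 lies higher, and AFP and TTR stay below 1 FPKM in every library.

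In the LGR4-/- clones, SOX17, PRDM1, CXCR4, APOA1 and APOA2 were lower than in the control library, FOXA2 was higher, and HHEX lay on opposite sides of the control in the 2 clones. The median difference of the 7 genes in log2(FPKM + 1), as the mean of both clones minus the control, was -0.58, beside 0.02 over all 12697 genes, for which the SD was 0.349. Both clones lay below both wild type libraries for 5 of the 7 genes, and the same held for 27.6% of all genes. Both lay above both wild type libraries for 1 of the 7, FOXA2, and for 34.4% of all genes. In log2(FPKM + 1), a difference of at least 1.5-fold below the control in both clones was reached by 3 of the 7 genes, against 3.09% of all genes. These were SOX17, APOA1 and APOA2. In implied reads PRDM1 was past 1.5-fold lower in both clones as well, so that this count depends on the scale. On the log2(FPKM + 1) scale none of the 7 differed by 2-fold or more from the control in the same direction in both clones, and 1.32% of all genes did. This count rested on the pseudocount, since with 0.1 in place of 1 there were 2, APOA1 and APOA2, against 2.72% of all genes, and the same 2 were past 2-fold lower in both clones in implied reads.

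Differences between the clones and the control were tested with limma across all genes, in a fit where the 2 clones give the only residual degree of freedom and the lone control library is assumed to vary like them. None of the 7 genes was called at an adjusted p of 0.05, and 0% of all genes were. At an unadjusted p under 0.05 there were 6 of the 7 genes and 2332 of all 12697 genes. In an alternative limma fit, the control and R-spondin2 libraries stand together as 2 wild type libraries, so that the treatment is part of the spread and the residual degrees of freedom are 2. Here 5 of the 7 genes were called lower in the clones, where 6.67% of all genes were, and 1 of the 7, FOXA2, was called higher, where 7.99% of all genes were. Each adjusted p below is by limma with Benjamini-Hochberg adjustment over all genes. For the 7 genes it is given first against the control library and then against both wild type libraries. For genes of the lists it is given only against both wild type libraries, and the first fit, against the control library, called none of them.

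SOX17, a HMG-box factor of endoderm that is also used in germ cells and arterial endothelium, was at 47.11 FPKM in the control library, 49.89 with R-spondin2, 23.62 in clone 1 and 27.19 in clone 2. Both clones lay below both wild type libraries, and clone 1 was the lowest. The log2 ratio to the control in implied reads was -0.99 (interval -1.15 to -0.84) for clone 1, from 490 reads against 997, and -0.79 (-0.94 to -0.64) for clone 2. The mean difference in log2(FPKM + 1) was -0.87 (SE 0.115), a value below which 2.17% of all genes lay. The limma adjusted p was 0.0809 against the control and 0.0076 against both wild type libraries. When the filter was raised to a mean of 5 FPKM, which leaves out PRDM1, APOA1 and APOA2, SOX17 was called against the control at an adjusted p of 0.0148 by limma, and FOXA2, HHEX and CXCR4 were not. That fit called 5.50% of the 9029 genes it tested.

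FOXA2, a forkhead factor that opens chromatin in endoderm and is also used in node and notochord, ran the other way. It was at 9.05 FPKM in the control library, 8.44 with R-spondin2, 11.88 in clone 1 and 11.64 in clone 2. The clones were close to each other and above both wild type libraries. Relative to the control, the log2 ratio of implied reads was 0.39 (interval 0.12 to 0.67) for clone 1 and 0.36 (0.09 to 0.64) for clone 2. On the log2(FPKM + 1) scale the mean difference was 0.34 (SE 0.119), and 88.2% of all genes had a lower one. The limma adjusted p was 0.228 against the control and 0.0382 against both wild type libraries. In the annotation FOXA2 overlaps another gene on the same strand, listed there under a clone-based name, and counting by strand would not separate reads of the overlap.

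PRDM1 was at 3.19 FPKM in the control library, 3.98 with R-spondin2, 1.65 in clone 1 and 1.95 in clone 2. Its groups did not overlap. The log2 ratio to the control in implied reads was -0.96 (interval -1.40 to -0.53) for clone 1 and -0.71 (-1.12 to -0.30) for clone 2, and the mean difference in log2(FPKM + 1) was -0.58 (SE 0.173). The limma adjusted p was 0.177 against the control and 0.0275 against both wild type libraries.

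HHEX, a homeobox repressor, was at 8.28 FPKM in the control library, 10.98 with R-spondin2, 6.13 in clone 1 and 9.69 in clone 2. The clones lay on either side of the control and did not form a group apart. In implied reads the log2 ratio to the control was -0.43 (interval -0.83 to -0.03) for clone 1 and 0.23 (-0.12 to 0.58) for clone 2. The mean difference of the clones in log2(FPKM + 1) was -0.09 (SE 0.257), with a limma adjusted p of 0.898 against the control and 0.439 against both wild type libraries. The value without clone 1 was 0.20, so that its direction rested on that library.

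**Figure D2:**
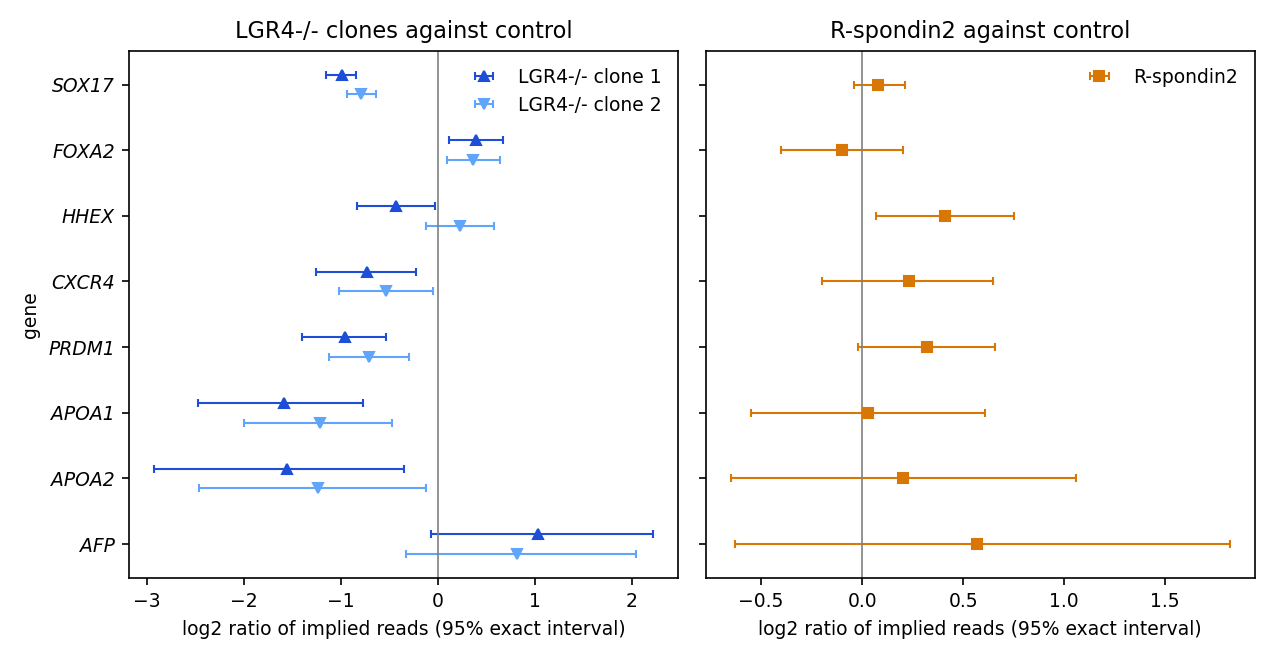
Log2 ratio of implied reads to the control library for 8 of the genes, TTR having 4 reads or fewer, with 95% exact intervals of counting error. Left, the LGR4-/- clones, right, R-spondin2, on different horizontal scales. For SOX17, CXCR4, PRDM1, APOA1 and APOA2 both clones lie below 0 with their whole interval, whereas with R-spondin2 only the interval of HHEX leaves out 0.

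CXCR4, the receptor for the chemokine CXCL12, was at 5.90 FPKM in the control library, 6.90 with R-spondin2, 3.58 in clone 1 and 4.12 in clone 2. Both clones lay below both wild type libraries. The log2 ratio to the control in implied reads was -0.73 (interval -1.25 to -0.23) for clone 1 and -0.53 (-1.02 to -0.05) for clone 2. The mean difference in log2(FPKM + 1) was -0.51 (SE 0.155), and the limma adjusted p was 0.183 against the control and 0.027 against both wild type libraries.

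The ligand of CXCR4 and the other receptor of that ligand lay on opposite sides of the control in the clones. CXCL12 was at 19.35 FPKM in the control library, 17.69 with R-spondin2, 43.06 in clone 1 and 36.30 in clone 2, a mean difference in log2(FPKM + 1) of 0.99. ACKR3, a receptor that takes up CXCL12 and clears it, was at 20.39 FPKM, 25.12 with R-spondin2, 5.28 in clone 1 and 7.50 in clone 2, a mean difference of -1.55. Against both wild type libraries the limma adjusted p was 0.0076 for CXCL12 and 0.00791 for ACKR3. CXCL14, a chemokine that can bind CXCR4, was at 2.36, 3.58, 1.85 and 3.71 FPKM in the same order, with the clones on either side of the control. In each library ACKR3 was above CXCR4 in FPKM, a scale per transcript length.

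**Figure D3:**
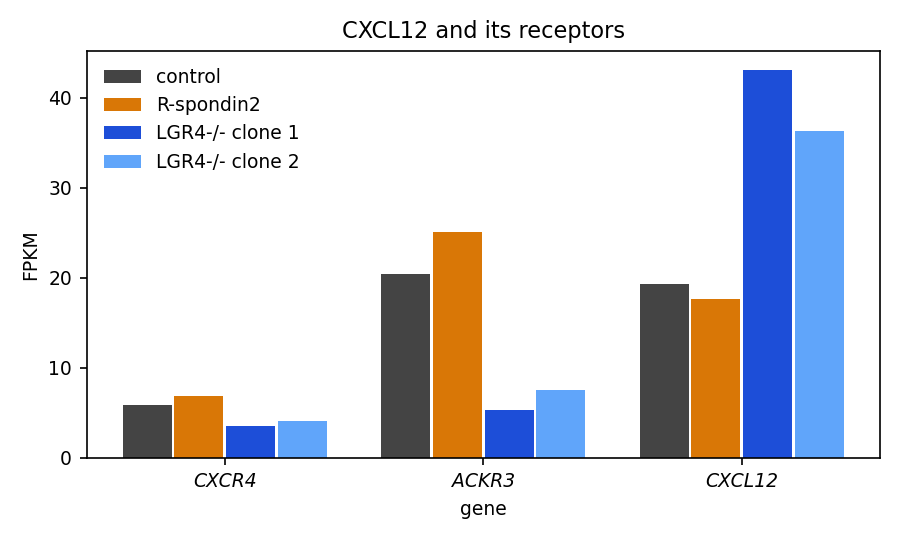
FPKM of CXCR4, ACKR3 and CXCL12 in each library, with 1 bar per library and no error bars, since every bar is a single library. Both receptors are lower in the LGR4-/- clones than in the control and R-spondin2 libraries, and CXCL12 is higher, at 43.06 and 36.30 against 19.35 and 17.69 FPKM.

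The apolipoproteins APOA1 and APOA2 had the lowest values of the clones relative to the control among the 7 genes. APOA1 was at 6.21 FPKM in the control library, 6.33 with R-spondin2, 2.05 in clone 1 and 2.70 in clone 2. The wild type libraries were close to each other and both clones lay below them. Relative to the control, the log2 ratio of implied reads was -1.58 (interval -2.47 to -0.77) for clone 1, from 17 reads against 52, and -1.21 (-2.00 to -0.47) for clone 2. On the log2(FPKM + 1) scale, which understates the change of low genes, the mean difference was -1.10 (SE 0.184), and 1.32% of all genes lay below it. The limma adjusted p was 0.0899 against the control and 0.00952 against both wild type libraries. APOA1 overlaps the antisense gene APOA1-AS in the annotation, and since the sources used here do not say that counting used strand, reads of the 2 genes cannot be told apart.

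APOA2 was at 5.53 FPKM in the control library, 6.45 with R-spondin2, 2.01 in clone 1 and 2.29 in clone 2. It followed the same order as APOA1. These values stand for 24, 27, 8 and 10 implied reads, and the intervals were correspondingly wide, with a log2 ratio of -1.55 (-2.92 to -0.35) for clone 1 and -1.23 (-2.46 to -0.12) for clone 2. The mean difference in log2(FPKM + 1) was -1.05 (SE 0.159). The limma adjusted p was 0.0882 against the control and 0.00868 against both wild type libraries. The summed level of APOA1 and APOA2 was 11.7 FPKM in the control library, 12.8 with R-spondin2, 4.06 in clone 1 and 4.99 in clone 2.

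AFP and TTR did not pass the filter and entered no test. AFP was at 0.49 FPKM in the control library, 0.73 with R-spondin2, 0.98 in clone 1 and 0.88 in clone 2, from 11, 16, 22 and 19 implied reads. Both clones lay above both wild type libraries, but the intervals of the log2 ratio to the control included 0, at 1.03 (-0.07 to 2.22) for clone 1 and 0.82 (-0.33 to 2.04) for clone 2. TTR was at 0.49, 0.12, 0.12 and 0.25 FPKM in the same order, from 4, 1, 1 and 2 implied reads, and no difference was detectable at this depth.

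R-spondin2 was compared with the same control library, to ask whether the factor given for 1 day moved these genes. None of the 7 genes differed by 2-fold or more, and 0.221% of all genes did. In the R-spondin2 library 6 of the 7 genes, all but FOXA2, were higher than in the control, where 47.8% of all genes were. The median difference in log2(FPKM + 1) was 0.19, beside -0.01 over all genes with an SD of 0.213. HHEX had the largest, at 0.37, and 97.1% of all genes had a lower one. Its log2 ratio of implied reads was 0.41 (interval 0.07 to 0.75), the only one of the 9 intervals that left out 0. PRDM1 had a ratio of 0.32 (-0.02 to 0.66), CXCR4 of 0.23 (-0.20 to 0.65) and APOA2 of 0.20 (-0.65 to 1.06). For SOX17 it was 0.08 (-0.04 to 0.21), for APOA1 0.03 (-0.55 to 0.61) and for FOXA2 -0.10 (-0.40 to 0.20). With 1 library of each, these values have no replicate check, and the direction opposite to that in the clones holds the same control library on both sides.

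The clones were also compared with each other. Of the 7 genes 6, again all but FOXA2, were higher in clone 2 than in clone 1, as were 49.2% of all genes. None differed by 2-fold or more, which 0.252% of all genes did. The median difference in log2(FPKM + 1) was 0.16, beside a median of -0.003 over all genes with an SD of 0.222. HHEX differed most, by 0.58, and 98.6% of all genes had a lower difference. The log2 ratio of clone 2 to clone 1 in implied reads was 0.65 (interval 0.27 to 1.04) for HHEX and 0.20 (0.03 to 0.38) for SOX17, and the intervals of FOXA2, CXCR4, PRDM1, APOA1 and APOA2 included 0. Clone 2 was also the clone with more LGR4 RNA, and the part of that difference in these values was not tested.

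Other regulators and signals of endoderm were read from a list of 20 genes, of which 17 passed the filter. In both clones 10 of them were below the control and 6 above it, and 3 were lower by 2-fold or more in both. Of all genes, 1.32% were past 2-fold from the control the same way in both clones. The share of all genes merely below or above the control in both was not computed. Against both wild type libraries limma called 8 lower and 1 higher, where 6.67% and 7.99% of all genes were. The median difference from the control was -0.56. GATA4, a zinc finger factor of endoderm and heart, was at 40.52 FPKM in the control library, 53.22 with R-spondin2, 8.05 in clone 1 and 15.05 in clone 2. GATA6, its close relative, was at 140.57, 186.79, 39.52 and 61.19 FPKM in the same order. These 2 factors thus lay further below the control than SOX17, with mean differences in log2(FPKM + 1) of -1.78 and -1.50. CER1, a secreted inhibitor of NODAL, BMP and WNT made by anterior endoderm, went from 2395.47 FPKM in the control library to 598.84 and 1033.60 in the clones, and was at 3467.35 with R-spondin2. LHX1, a factor of the anterior streak, was at 67.36, 95.53, 18.57 and 34.83 FPKM, in the order control, R-spondin2, clone 1 and clone 2. The adjusted p by limma against both wild type libraries was 0.00989 for GATA4, 0.00952 for GATA6, 0.0111 for CER1 and 0.0168 for LHX1. The 6 genes above the control in both clones were LEFTY1, LEFTY2, NODAL, TDGF1, FOXA3 and KIT. LEFTY1, an inhibitor of NODAL, was the gene called higher, with a limma adjusted p of 0.0157 against both wild type libraries. It was at 36.86 FPKM in the control library, 43.90 with R-spondin2, 70.41 in clone 1 and 59.30 in clone 2. With R-spondin2, 14 of the 17 were higher than in the control, as were 47.8% of all genes.

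**Figure D4:**
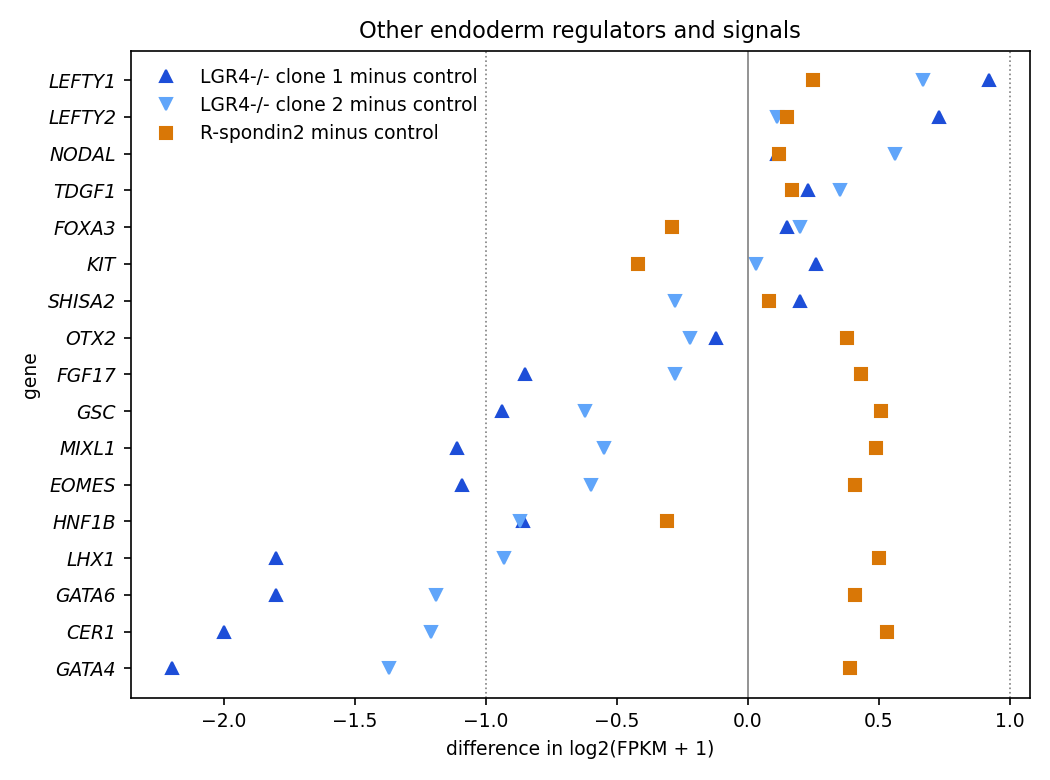
Difference from the control in log2(FPKM + 1) for the 17 other endoderm regulators and signals that passed the filter, with dotted lines at a 2-fold difference. GATA4, CER1 and GATA6 lie past the lower line in both LGR4-/- clones, and LEFTY1, an inhibitor of NODAL, lies highest.

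Products of liver and visceral endoderm other than APOA1, APOA2, AFP and TTR were mostly below 1 FPKM. Of 15 listed, 3 passed the filter, and limma called none of them against both wild type libraries. APOE, a lipoprotein also made by many cells outside the liver, was at 521.65 FPKM in the control library, 477.73 with R-spondin2, 681.90 in clone 1 and 561.97 in clone 2. APOC1, a neighbour of APOE in the genome, was at 61.37, 53.81, 46.33 and 52.58 FPKM, and APOM, a lipocalin of high-density lipoprotein, at 10.87, 8.71, 9.92 and 11.04. ALB, the albumin gene, was at 0.05 FPKM in every library, and APOC3 was listed at 0 in every library. Of APOE, APOC1 and APOM, APOC1 was below the control in both clones, as APOA1 and APOA2 were, and APOE was above it in both. Of the 6 later gut factors 5 were in the files and 2 passed. CDX2, a homeobox factor of hindgut and also of streak mesoderm and trophoblast, was at 8.80, 5.89, 2.87 and 3.53 FPKM (limma adjusted p of 0.0213 against both wild type libraries), and SOX9 was at 2.57, 1.95, 4.22 and 2.81.

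Several of the 9 genes are also used by other cell types, and the markers of these were read in the same libraries. Nascent mesoderm markers moved with the lower genes, since all 5 were below the control in both clones, 3 of them by 2-fold or more. Of all genes, 1.32% were past 2-fold the same way in both clones. Their summed level was 567.94 FPKM in the control library, 709.67 with R-spondin2, 133.27 in clone 1 and 236.71 in clone 2. Against both wild type libraries limma called 4 of these markers lower, where 6.67% of all genes were. HAND1 was the lowest relative to the control, at 70.05, 99.85, 8.59 and 19.76 FPKM, followed by MESP1 at 38.45, 57.26, 5.64 and 13.39. APLNR was at 362.46, 443.61, 71.23 and 122.19 FPKM and TBX6 at 26.68, 31.17, 10.22 and 14.84. T, the marker that was not called, was at 70.30, 77.78, 37.59 and 66.53 FPKM. In clone 2 it was close to the control, with a difference in log2(FPKM + 1) of -0.08. Pluripotent cell markers moved the other way, with all 3 above the control in both clones and a summed level of 645.09, 471.52, 1186.68 and 1095.36 FPKM. All 3 were called higher by limma against both wild type libraries, where 7.99% of all genes were. POU5F1, which shares sequence with pseudogenes, was at 597.10, 445.83, 1067.91 and 988.27 FPKM, NANOG at 28.10, 20.11, 52.78 and 56.42, and SOX2 at 19.89, 5.58, 65.99 and 50.67. The part of these cell types in the values of the 9 genes was not tested.

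For primordial germ cells, which use SOX17 and PRDM1, 4 of 7 markers passed the filter and NANOS3 was listed at 0 in the control, R-spondin2 and clone 2 libraries. The summed level of all 7 was 26.69 FPKM in the control library, 19.97 with R-spondin2, 46.06 in clone 1 and 35.81 in clone 2. The higher sum in the clones came from PRDM14, also a pluripotency factor, at 7.59, 3.59, 26.75 and 20.52 FPKM. Without PRDM14 the sum was 19.10, 16.38, 19.31 and 15.29 FPKM. TFAP2C was at 3.92, 4.26, 5.14 and 4.83 FPKM, DND1 at 10.14, 8.91, 10.27 and 7.65, and KLF4 at 4.03, 2.67, 3.23 and 2.34, and limma called none of these 3 against both wild type libraries. For endothelium, which uses SOX17 and CXCR4, 5 of 9 markers passed, PECAM1, CDH5, ESAM and ERG were below 1 FPKM, and the summed level was 43.97, 43.78, 40.18 and 45.00 FPKM. In both clones 1 of the 5 was below the control, KDR, and 1 above it, TEK. KDR, also a mesoderm marker, gave most of the sum in every library, at 34.40, 34.12, 26.80 and 32.87 FPKM, and was not called. TEK was at 5.73, 4.88, 9.0 and 7.98 FPKM and was the only one called by limma against both wild type libraries, as higher, at an adjusted p of 0.0246. TIE1 was at 1.30, 0.78, 1.58 and 1.21 FPKM and SOX18 at 0.98, 1.68, 0.85 and 1.06. Of 8 stromal fibroblast markers 6 passed, with DCN and POSTN below 1 FPKM. The summed level of all 8 was 237.84, 297.43, 216.42 and 247.49 FPKM. In both clones 3 of the 6 were below the control and 2 above it. Against both wild type libraries limma called 3 lower and 1 higher, where 6.67% and 7.99% of all genes were. The lower ones were LUM at 5.49, 9.11, 0.16 and 1.45 FPKM, PDGFRB at 4.97, 5.52, 2.86 and 3.08, and COL1A2 at 114.67, 152.96, 79.41 and 97.43. THY1 was the higher one, at 43.99, 36.07, 54.28 and 64.51 FPKM. The part of stromal RNA in the values of the 9 genes was not tested.

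The genes whose 4 values were most like those of a given gene were found for SOX17, APOA1 and APOA2, which ranged over at least 1 in log2(FPKM + 1). Likeness was the Euclidean distance in log2(FPKM + 1) over the 4 libraries after centring each gene on its mean. For SOX17 they were PRIMA1 (distance 0.046), RAI1 (0.051) and REEP4 (0.064), for APOA1 GATA3 (0.071), CCL2 (0.076) and PLCE1 (0.082), and for APOA2 AHNAK (0.027), BACE1 (0.031) and ACSS3 (0.032). PRIMA1, for example, was at 6.95 FPKM in the control library, 7.33 with R-spondin2, 2.99 in clone 1 and 3.77 in clone 2. GATA3 was at 1.81 FPKM in the control library, 1.90 with R-spondin2, 0.18 in clone 1 and 0.37 in clone 2. The log2(FPKM + 1) scale understates the change of such low genes, so a small distance is not the same fold change in FPKM. None of the 9 genes was among the nearest of another.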

How the data were processed

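TRA-1-85+ cells of the H1 line, sorted from mouse stroma at day 2, were sequenced on an Illumina GAIIx after TruSeq RNA library preparation. The authors deposited FPKM to 2 decimals for 17894 genes in each of 4 libraries, already scaled for transcript length and depth, and no count model was applied. The submitters' processing notes name BWA, Bowtie, RSEM and the hg19 build, without versions or roles. Groups came from the sample labels. Whether the cultures were separate differentiations is not given in the sources used here, and p-values then measure only the spread between these libraries.

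Values were compared as log2(FPKM + 1) for genes whose mean over the libraries reached 1 FPKM, with 2-fold as the threshold of size. Testing used limma 3.58.1 in R 4.3.3 with an intensity trend, two-sided, with Benjamini-Hochberg adjustment and a threshold of 0.05; it was checked on simulated data. Depth was estimated from FPKM below 0.6 of transcripts under 1500 bases, with GENCODE 29 lengths for 8068 genes with 1 RefSeq transcript. Promoter sequences are from RefSeq on GRCh38.p14, not the build of the files, and 5 of the 9 genes had an entry that was read. For SOX17, FOXA2, APOA1 and TTR no entry was read here, which does not show that RefSeq holds none. Python 3.11.15, numpy 2.4.6, scipy 1.17.1, pandas 2.3.3 and matplotlib 3.10.9 were used.

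All 9 genes and LGR4 were named, with up to 4 genes of each list that had the largest mean difference of the clones, any gene of a list past 2-fold with R-spondin2, and the 3 nearest genes for each of the 9 that ranged over at least 1. Markers below 1 FPKM or at 0, the mesoderm marker T, and the 6 endoderm regulators and signals above the control in both clones were named in addition. The genes and lists were chosen with earlier results of these data known. Alternatives were a pseudocount of 0.1, no filter, a filter of 5 FPKM, median-ratio rescaling, a 1.5-fold threshold, limma without the trend, another wild type reference and each clone left out.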

Additional observations from a re-analysis of the deposited data

Results flagged for a closer look

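HHEX had FPKM on opposite sides of the control in the LGR4-/- clones. Its log2 ratio to the control in implied reads was -0.43 (interval -0.83 to -0.03) for clone 1. For clone 2 it was 0.23 (-0.12 to 0.58), an interval that included 0, so that a rise in clone 2 was not resolved. It was at 8.28 FPKM in the control library, 6.13 in clone 1 and 9.69 in clone 2, so that clone 1 lay below the control and clone 2 above it. The difference of clone 2 minus clone 1 in log2(FPKM + 1) was 0.58, and with 1 library of each clone this difference was not tested.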

How the results depend on the processing

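No count of genes past 2-fold among the 7, 0 in each comparison, changed for R-spondin2 against control or for clone 2 against clone 1 under any alternative run. For the clones against control the count of 0 became 2 with a pseudocount of 0.1, 1 with median-ratio rescaling, 3 with a 1.5-fold threshold and 1 with the R-spondin2 library as reference. It ran from 0 to 2 when a clone was left out, being 2 (APOA1 and APOA2) without clone 2. The share of all genes was 2.72% with the pseudocount of 0.1, and 3.09% were 1.5-fold lower. For rescaling, the R-spondin2 reference and a clone left out, no such share was computed, so those counts cannot be set against all genes. The count called by limma, 0, became 1 with a filter of 5 FPKM (SOX17) and 6 against both wild type libraries, and was 0 without the trend, with a pseudocount of 0.1, without the filter and with rescaling. Over all genes limma called 497 of 9029 with the filter of 5 FPKM and, of 12697, 88 with rescaling and 1862 against both wild type libraries. The median difference of -0.58 was -0.83 against the R-spondin2 library and ran from -0.66 to -0.51 with a clone left out. Of 72 values of single genes recomputed, 1 had the opposite sign, HHEX without clone 1 (0.20). For the clones against control 7 of these values moved by more than 1 SD between the clones. In the comparisons of single libraries 0 moved by more than the counting interval's half-width, which is wide for TTR (R-spondin2 against control -0.41, and -1.42 with a pseudocount of 0.1). The cause of these changes was not tested. No paired analysis was possible because the control and R-spondin2 libraries carry no replicate number. Depth limits APOA2, AFP and TTR most, which rest on few implied reads.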
